A study of Mus musculus with 8 samples.

Results

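Expression of 10 genes that mark the ganglionic eminence and the GABAergic neurons born there was followed in mouse neurospheres, balls of dividing cells that neural stem cells form in culture. The 10 genes were Gsx2, Nkx2-1, Six3, Dlx1, Dlx2, Dlx5, Dlx6, Lhx6, Gad1 and Gad2. They were chosen by name, through the RefSeq accessions of the array's probes, and not by any measured value. They had 13 of the 55681 probes and were 10 of the 20660 genes that could be named on the array. The starting tissue was the ganglionic eminence at E14.5 (embryonic day), and each sample was grown from the brain of 1 embryo. Total RNA of quaternary neurospheres was labelled with Cy3 and hybridised to 8 single-colour Agilent arrays of 1 slide. The groups were HP1gamma KO adherent (KO adherent, 2 arrays), HP1gamma KO floating (KO floating, 3 arrays) and wild type floating (WT floating, 3 arrays). Cbx3 encodes HP1gamma, a protein of heterochromatin and of transcribed genes. In all groups the medium was Neurobasal with B-27, Glutamax, penicillin-streptomycin, heparin, 20 ng/ml EGF and 20 ng/ml bFGF, and culture lasted 7 days. The kind of deletion, its breadth of tissue and the adherent surface are not given in the sources used here, and the described plates are of low attachment for every sample. Nothing says which samples share a litter.

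The ganglionic eminences are the ventral part of the embryonic telencephalon. Their progenitors are patterned by homeodomain proteins, Nkx2-1 in the medial and Gsx2 in the lateral eminence, and then switch on the Dlx genes, which lie in the genome as pairs (Dlx1 with Dlx2, Dlx5 with Dlx6). Dlx proteins activate genes of GABAergic neurons, among them Gad1 and Gad2, the enzymes that make GABA, while Lhx6 acts downstream of Nkx2-1 in cells that become cortical interneurons. Six3 is a homeodomain factor of the early forebrain and of striatal progenitors.

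Levels are log2 of the processed signal minus log2 of the 75th percentile of that array's non-control spots, so 0 is the level of that percentile. A probe's level says nothing of another probe's, because probes differ in brightness. The 75th percentile ranged from 616 to 865 intensity units and the share of spots well above background from 44.5% to 55.4%. The Cbx3 signal opposed the label on 2 arrays: it was 5.91 on KO adherent 2 and -2.17 on WT floating 2, against 5.83 and 5.95 on WT floating 1 and 3 and -2.76 to -1.75 on the other KO arrays. Labels were kept, and each result is given also without the arrays labelled KO adherent 2 and WT floating 2. These are called the opposed arrays here. Of the neural stem cell markers, 6 of 6 were well above background on all 8 arrays, as were 7 of 7 markers of the oligodendrocyte lineage and 3 of 5 of astrocytes.

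Of the 10 genes, 3 were well above background on all 8 arrays: Six3, Gad1 and, on 1 of its 3 probes, Lhx6. Another 3 were so on some arrays (Dlx1 on 6, Dlx2 on 7, Dlx6 on 1) and 4 on none (Gsx2, Nkx2-1, Dlx5 and Gad2). The defining progenitor factors of the medial and the lateral eminence, Nkx2-1 and Gsx2, were thus not detected in cells labelled as coming from this tissue. Of the 6 markers of cortical cells, 2 were well above background on all 8 arrays and 2, Emx1 and Eomes, on none. In such bulk samples, fewer cells of a type and less RNA per cell cannot be told apart.

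**Figure D1:**
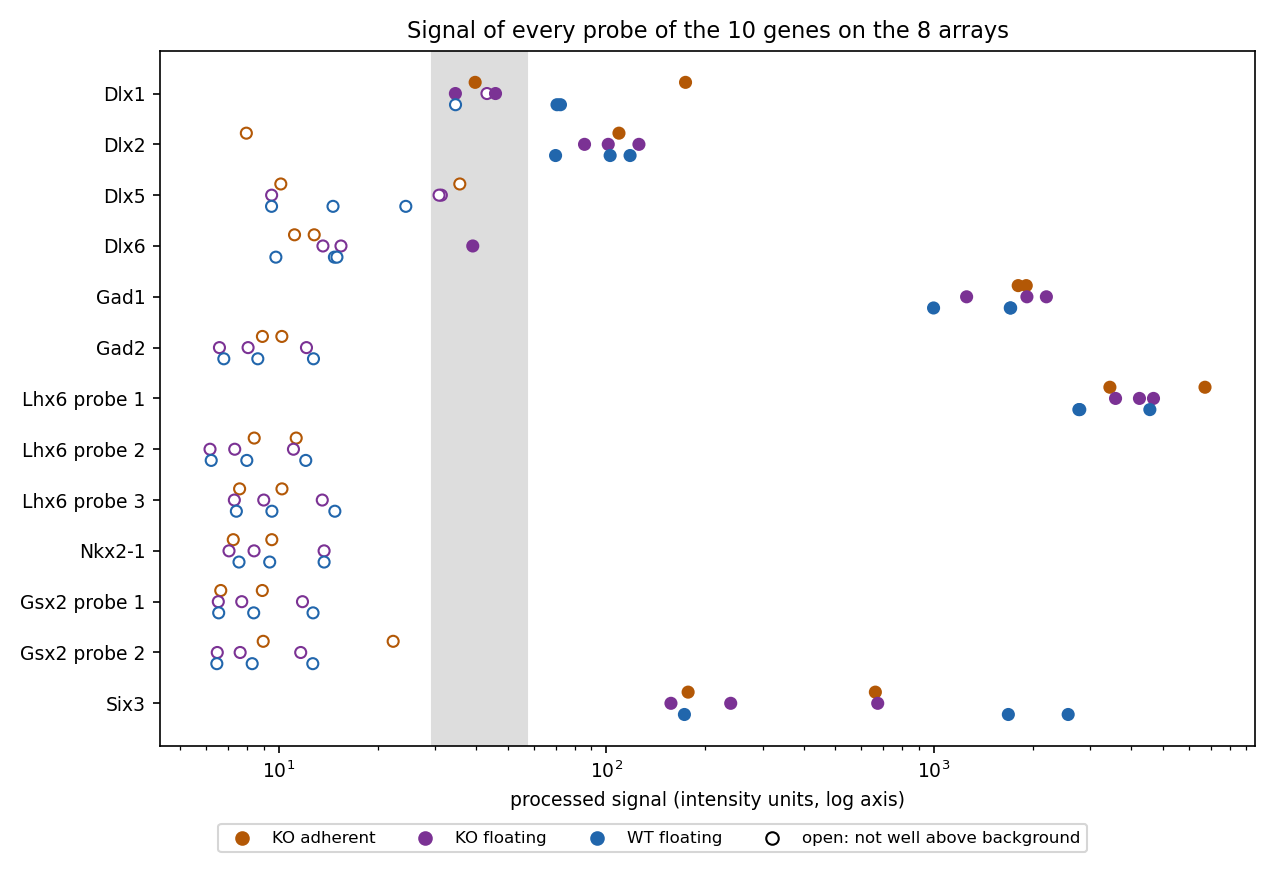
Processed signal (intensity units, log axis) of the 13 probes on the 8 arrays, 1 point per array, with the rows of each probe running from KO adherent over KO floating to WT floating. Open points were not well above background, and the grey band spans the lowest signal counted as well above background on each array (29.3 to 57.1). Six3, Gad1 and the first Lhx6 probe lie to the right of the band on every array, while Gad2, Nkx2-1, Gsx2 and the other Lhx6 probes lie to its left.

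Among the progenitor factors, Nkx2-1 rested on the most spots, since its probe is printed 10 times on each array. Of 80 spots, 1 was well above background (on WT floating 2), and signals ran from 5.87 to 41.4 intensity units. Gsx2 had 2 probes, which were well above background on 0 of 8 arrays each and gave 6.46 to 22.3 intensity units. The highest of these values, 22.3, came from the second probe on KO adherent 2, where the first gave 8.90. No fold is given for these genes, as both sides of any comparison were not well above background.

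Six3 was the most variable of the 3 genes measured on all arrays, with an 18.9-fold range of signal. It had -0.075 and -2.06 on KO adherent 1 and 2, -2.15, -0.35 and -1.36 on KO floating 1, 2 and 3, and 1.92, -2.32 and 1.42 on WT floating 1, 2 and 3. WT floating 1 and 3 were the highest of the 8 arrays, WT floating 2 was the lowest, and the groups overlapped. Six3 averaged -1.29 ± 0.90 in KO floating and 0.34 ± 2.32 in WT floating (SD, n = 3 each), a log2 difference of -1.62 (SE 1.16, limma adjusted p = 0.813). The threshold used throughout is a Benjamini-Hochberg adjusted p of 0.05. In that fit 1 of 22647 features passed, 0.00442% of those tested. Cbx3 itself did not pass there (difference -5.33, SE 2.63, limma adjusted p = 0.813), so a gene short of the threshold may still differ. Without the opposed arrays Cbx3 passed (difference -8.02, SE 0.35, limma adjusted p = 0.014). The Six3 difference was then -2.95 (SE 0.56, limma adjusted p = 0.094), and KO floating (n = 3) and WT floating (n = 2) no longer overlapped. There 46 of 25962 features passed, 0.177%.

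When the 4 remaining KO arrays of both cultures were joined, Six3 averaged -0.98 ± 0.96 in KO (SD, n = 4) and 1.67 ± 0.36 in WT floating (SD, n = 2), and it fell by 2.65 on the log2 scale (SE 0.59, limma adjusted p = 0.036). In the joined fit 3722 of 21463 features passed, 17.3%, and Six3 was 1 of the 4 of the 10 genes that could be tested there. It did not pass without WT floating 1 (limma adjusted p = 0.16), WT floating 3 (0.158), KO floating 1 (0.0585) or KO adherent 1 (0.0651), and the differences then lay between -2.95 and -2.26. With every dim probe kept in the test it did not pass either (adjusted p = 0.123). The joined fit cannot tell culture and genotype apart for KO adherent 1.

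Six3 did not track Cbx3 on KO adherent 2. That array had a Cbx3 level of 5.91, close to WT floating 1 and 3, but its Six3 level was -2.06, against 1.92 on WT floating 1 and 1.42 on WT floating 3. The summed level of the 7 oligodendrocyte lineage markers separated the arrays with high Cbx3 from the others. It was 6.29 on KO adherent 2, 5.71 on WT floating 1 and 5.65 on WT floating 3, against 7.09 to 7.63 on the other 5 arrays. The summed level of the 5 astrocyte markers split the arrays alike: it was 6.91 on KO adherent 2, 7.01 on WT floating 1 and 6.09 on WT floating 3, against 7.48 to 8.24 on the other 5 arrays. That of the 6 neuronal markers was 4.54 on KO adherent 2, 4.54 on WT floating 1 and 4.51 on WT floating 3, against 4.86 to 5.18 on the others. For the 5 microglial markers, of which Aif1, Cx3cr1 and Tyrobp were well above background on 0 arrays, the sums were 3.74, 3.87 and 3.81 on those 3 arrays, against 3.90 to 4.76. The part of these cell types in the Six3 result was not tested.

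**Figure D2:**
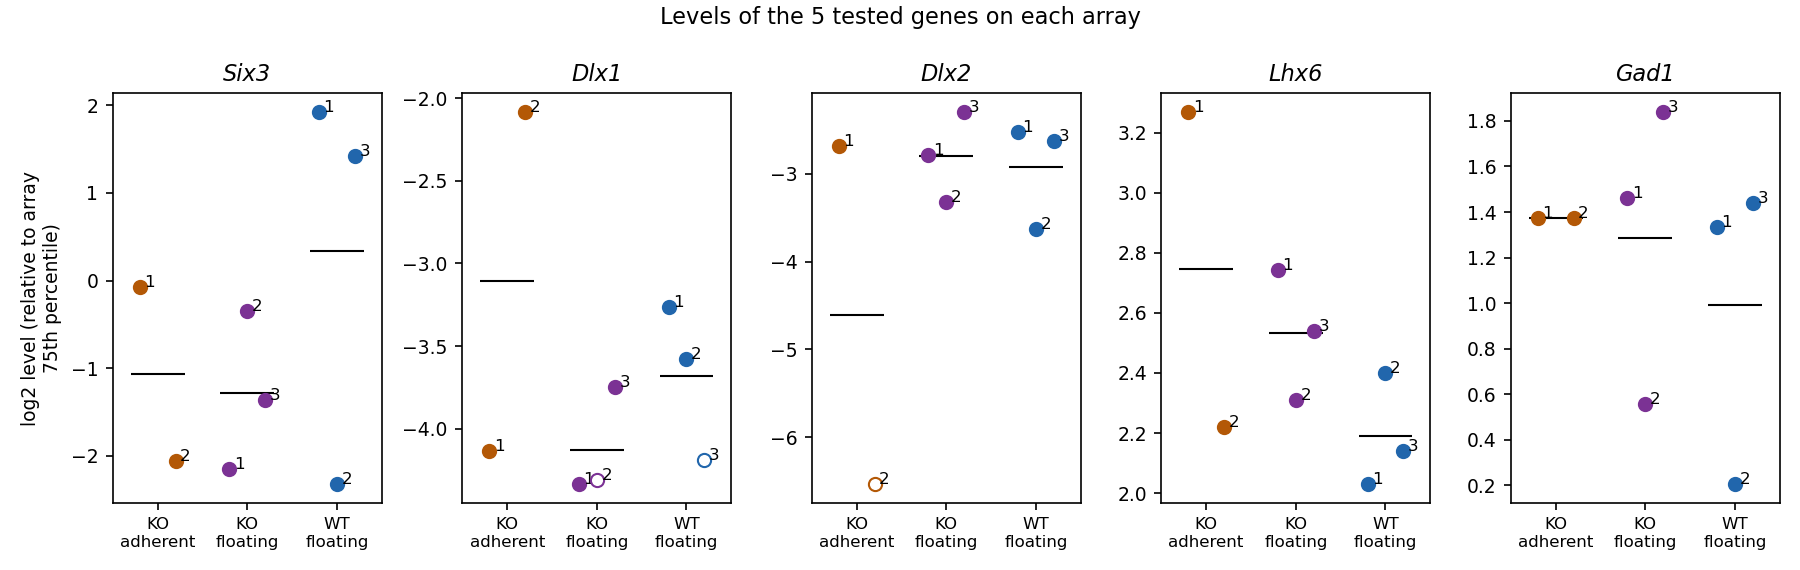
Log2 levels, relative to each array's 75th percentile, of the 5 genes that passed the filter on dim probes. Each point is 1 array with its replicate number, open where not well above background, the bars are group means, and the vertical scales differ. Six3 spans from -2.32 to 1.92, and Dlx2 has a single low array, KO adherent 2.

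**Figure D3:**
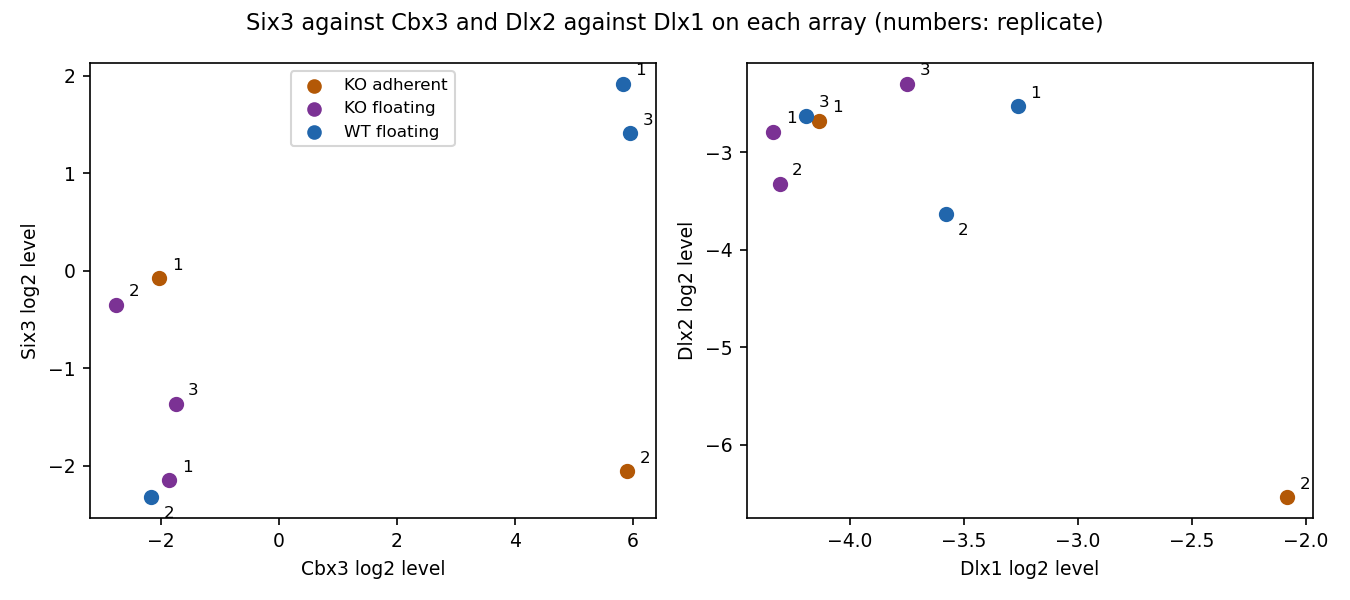
Six3 level against Cbx3 level (left) and Dlx2 level against Dlx1 level (right), both log2, 1 point per array with its replicate number. KO adherent 2 has a Cbx3 level of 5.91 beside a Six3 level of -2.06, and it has the highest Dlx1 level (-2.08) beside the lowest Dlx2 level (-6.54).

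The starts of Six3, Dlx1 and Dlx2 are shown because these genes varied most between arrays among those detected, and those of Gad1 and Gad2 because the enzymes differ in detection. Each window runs from 250 bases before to 50 bases after a RefSeq start (GRCm38.p6), 5′ to 3′, with CpG dinucleotides in capitals. The windows lie at chr17:85620584-85620883 (plus strand), chr2:71529195-71529494 (plus strand), chr2:71546705-71547004 (minus strand), chr2:70561879-70562178 (plus strand) and chr2:22622077-22622376 (plus strand).
Six3: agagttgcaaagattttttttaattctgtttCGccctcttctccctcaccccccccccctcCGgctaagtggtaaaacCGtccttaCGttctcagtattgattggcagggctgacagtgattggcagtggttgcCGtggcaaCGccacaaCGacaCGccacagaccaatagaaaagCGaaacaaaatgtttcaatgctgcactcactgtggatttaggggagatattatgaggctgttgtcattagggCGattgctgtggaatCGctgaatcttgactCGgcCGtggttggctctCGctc
Dlx1: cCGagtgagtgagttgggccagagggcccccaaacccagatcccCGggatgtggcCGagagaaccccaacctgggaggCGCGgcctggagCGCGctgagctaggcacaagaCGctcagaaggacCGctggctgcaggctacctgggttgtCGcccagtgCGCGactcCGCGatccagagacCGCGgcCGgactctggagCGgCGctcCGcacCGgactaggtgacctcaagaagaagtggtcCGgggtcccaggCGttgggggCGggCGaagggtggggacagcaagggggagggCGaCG
Dlx2: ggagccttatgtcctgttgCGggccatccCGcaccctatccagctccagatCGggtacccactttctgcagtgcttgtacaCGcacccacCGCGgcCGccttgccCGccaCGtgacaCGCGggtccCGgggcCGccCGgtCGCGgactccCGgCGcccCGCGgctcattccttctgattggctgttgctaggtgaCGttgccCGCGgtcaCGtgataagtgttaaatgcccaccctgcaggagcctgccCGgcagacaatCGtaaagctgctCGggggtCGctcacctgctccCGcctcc
Gad1: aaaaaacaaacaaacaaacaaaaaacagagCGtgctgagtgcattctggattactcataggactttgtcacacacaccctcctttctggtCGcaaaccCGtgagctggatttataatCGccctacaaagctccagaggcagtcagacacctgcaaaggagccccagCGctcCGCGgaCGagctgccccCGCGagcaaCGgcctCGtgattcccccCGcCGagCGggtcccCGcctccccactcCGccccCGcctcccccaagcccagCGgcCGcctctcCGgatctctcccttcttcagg
Gad2: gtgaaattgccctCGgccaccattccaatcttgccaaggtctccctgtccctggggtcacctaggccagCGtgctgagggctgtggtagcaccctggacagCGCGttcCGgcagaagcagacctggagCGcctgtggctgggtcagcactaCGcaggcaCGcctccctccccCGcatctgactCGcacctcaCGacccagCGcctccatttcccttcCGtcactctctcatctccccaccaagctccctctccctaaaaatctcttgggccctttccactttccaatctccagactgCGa
These windows held 14, 27, 29, 21 and 14 CpG dinucleotides in that order. Over 32851 windows of the same length the median was 7 and the quartiles were 3 and 20. The windows of Six3 and Gad2 thus lay between the quartiles. Of the 10 genes, 8 had an entry, with 10 windows in all, and each window held 11 to 29 CpG dinucleotides. The homeodomain core TAATTA, which reads alike on both strands, was in 0 of the 10 windows and in 5.29% of all windows of this length. This describes these letters alone.

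The paired neighbours Dlx1 and Dlx2 were dim but detected. Dlx2 had -2.68 and -6.54 on KO adherent 1 and 2, -2.79, -3.32 and -2.29 on KO floating 1, 2 and 3, and -2.52, -3.63 and -2.62 on WT floating 1, 2 and 3. All arrays but 1 lay within -3.63 to -2.29, and KO adherent 2 was far below them. There the Dlx2 spot had 7.95 intensity units and was not well above background, against 69.9 to 125.7 intensity units on the other arrays. Dlx1 had -4.13 and -2.08 on KO adherent 1 and 2, -4.34, -4.31 and -3.75 on KO floating 1, 2 and 3, and -3.26, -3.58 and -4.19 on WT floating 1, 2 and 3. The same array, KO adherent 2, was thus the highest for Dlx1, at 174.4 intensity units against 34.6 to 72.4 on the other arrays. Dlx1 was not well above background on KO floating 2 and WT floating 3.

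Neither gene passed the threshold, and with all 8 arrays as labelled Cbx3 itself did not pass either. In KO floating against WT floating, Dlx2 averaged -2.80 ± 0.51 and -2.93 ± 0.61 (SD, n = 3 each; difference 0.13, SE 0.91, limma adjusted p = 0.97), and without the opposed arrays the difference was -0.23 (SE 0.33, adjusted p = 0.677). Dlx1 averaged -4.13 ± 0.33 in KO floating and -3.68 ± 0.47 in WT floating (SD, n = 3 each), a difference of -0.45 (SE 0.52, limma adjusted p = 0.822), and -0.40 (SE 0.36, adjusted p = 0.499) without the opposed arrays. Dlx1 entered the fit of all 8 arrays through the KO adherent group alone, so its values with that group had a part in its choice. In KO adherent against KO floating the differences were 1.02 (SE 0.58) for Dlx1 and -1.81 (SE 1.01) for Dlx2 (limma adjusted p = 0.99 each). Both rested on KO adherent 2: without the opposed arrays they were -0.0027 for Dlx1 and 0.12 for Dlx2.

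The other pair, Dlx5 and Dlx6, stayed at or near background. Dlx5 had 35.7 and 10.1 intensity units on KO adherent 1 and 2, 31.3, 30.8 and 9.50 on KO floating 1, 2 and 3, and 9.49, 24.4 and 14.6 on WT floating 1, 2 and 3. No array was well above background for it, though 5 of 8 passed the scanner software's weaker test of a positive and significant signal. Dlx6 was well above background on KO floating 1 alone, at 39.1 intensity units against 9.79 to 15.5 on the other 7 arrays. Neither gene passed the filter on dim probes, so neither was tested in the main fit. With every dim probe kept, all 10 genes were tested and 0 passed in KO floating against WT floating.

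Lhx6, the factor of interneuron precursors, had 3 probes that disagreed. One of them was bright on all 8 arrays, at 2771 to 6726 intensity units, while the other 2 were well above background on 0 of 8 arrays. One of these dim probes carries the same accession as the bright one. On the bright probe, Lhx6 had 3.27 and 2.22 on KO adherent 1 and 2, 2.74, 2.31 and 2.54 on KO floating 1, 2 and 3, and 2.03, 2.40 and 2.14 on WT floating 1, 2 and 3. KO adherent 1 was the highest and WT floating 1 the lowest, and KO floating and WT floating overlapped through WT floating 2. The mean was 2.53 ± 0.22 in KO floating and 2.19 ± 0.19 in WT floating (SD, n = 3 each), which differ by 0.34 (SE 0.29, limma adjusted p = 0.813).

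Without the opposed arrays, all 3 KO floating arrays were above both WT floating arrays for Lhx6, by a mean of 0.45 (SE 0.19, limma adjusted p = 0.228). In the joined fit the difference was 0.63 (SE 0.27, limma adjusted p = 0.142), also short of the threshold. KO adherent 1, alone in its group there, was 0.74 (SE 0.24) above KO floating and 1.18 (SE 0.26) above WT floating, with limma adjusted p-values of 1.0 and 0.12. That array is assumed in the fit to vary like the other groups. The 2 dim probes leave it uncertain which Lhx6 transcripts the bright probe reports, and whether its signal comes from Lhx6 alone. This was not tested.

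Gad1 was bright and Gad2 was not detected. Gad2, read from 1 probe, gave 6.58 to 12.7 intensity units and was well above background on 0 of 8 arrays. Whether that probe can report Gad2 was not tested. Gad1 had 1.37 on both KO adherent arrays, 1.46, 0.56 and 1.84 on KO floating 1, 2 and 3, and 1.33, 0.20 and 1.44 on WT floating 1, 2 and 3. The other 6 arrays lay within 1.33 to 1.84, below which lay KO floating 2 and WT floating 2, which share a number. These 2 arrays stayed the lowest after quantile normalization, at 10.07 and 9.69 against 10.79 to 11.35 on the other arrays on that log2 scale. They also had the highest 75th percentiles (856 and 865 intensity units) and the lowest level of the immediate early gene Nr4a1 (4.83 and 4.50, against 7.43 to 8.01). The part of these differences in the Gad1 level was not tested.

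Between groups, Gad1 averaged 1.29 ± 0.66 in KO floating and 0.99 ± 0.68 in WT floating (SD, n = 3 each), a difference of 0.29 (SE 0.43, limma adjusted p = 0.839). Each KO floating array was above the WT floating array of the same number. Without the opposed arrays the difference was -0.10 (SE 0.41, adjusted p = 0.888), in a fit without pairing that leaves out WT floating 2 and keeps KO floating 2, the low array of that number. KO adherent differed from KO floating by 0.088 (SE 0.48) and from WT floating by 0.38 (SE 0.48), with limma adjusted p-values of 0.993 and 1.0.

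**Figure D4:**
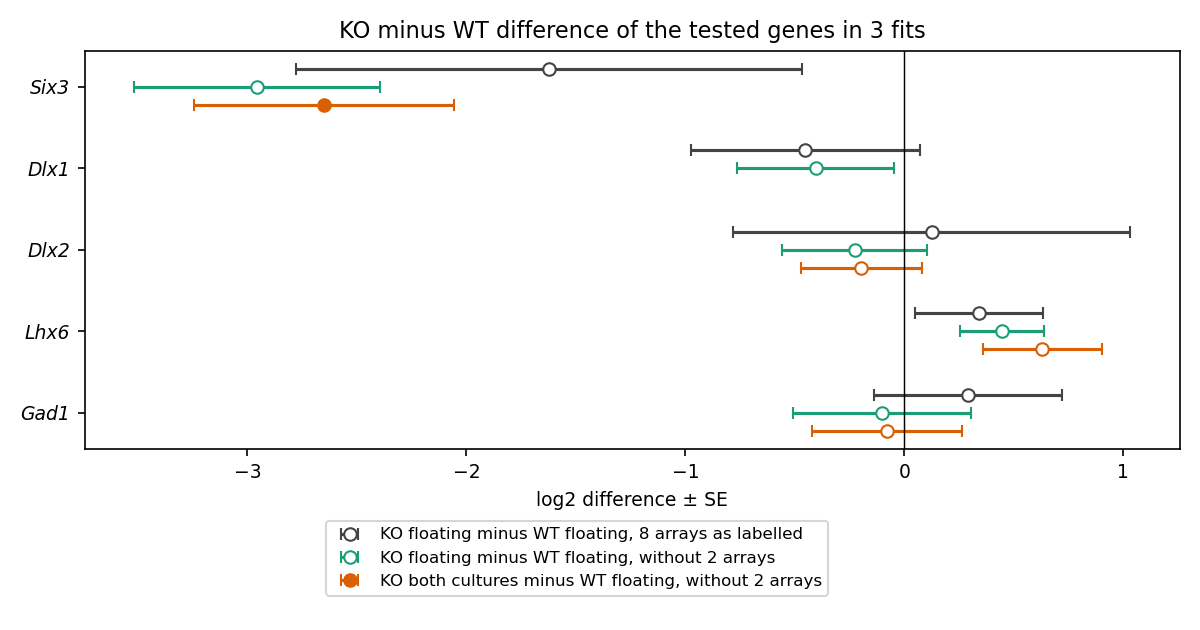
Log2 difference of KO minus WT floating (points, with bars of 1 SE) for the 5 tested genes in 3 limma fits: KO floating with all 8 arrays as labelled, KO floating without the opposed arrays, and both KO cultures joined without them. Filled points passed the threshold, which was Six3 in the joined fit alone (-2.65), and Dlx1 could not be tested there.

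Counted over the 10 genes, 5 were tested with all 8 arrays and 0 passed in KO floating against WT floating (3 higher and 2 lower, median 0.13, against a median of -0.027 over all 22647 features). In KO adherent against KO floating 0 of 5 passed (4 higher and 1 lower, median 0.21, against 0.056 over all features), where 0% of the 22647 features passed and 253 had an unadjusted p under 0.05 in limma. KO adherent and WT floating differ in both genotype and culture, and there 0 of 5 passed (3 higher and 2 lower, median 0.38, against 0.032), with 0.00442% of all features called. Of the 5 tested genes, 0 had an unadjusted p under 0.05 in limma in each of these 3 comparisons. Without the opposed arrays 0 of 5 passed in KO floating against WT floating (median -0.23, against -0.042 over 25962 features), and 1 of 5, Six3, had an unadjusted p under 0.05 in limma, as did 6563 of the 25962 features. KO adherent against WT floating without the opposed arrays gave 0 of 5, with 0.0154% of all features called.

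Other genes of the ventral telencephalon and of GABAergic neurons were read from lists of known function. With all 8 arrays, 0 of 21 tested ventral transcription factors and 0 of 17 tested GABA and interneuron genes passed in KO floating against WT floating. Of all 22647 features 0.00442% passed. The list medians were 0.22 and 0.25, against -0.027 over all features. Lists of dorsal (cortical), glutamatergic and hedgehog pathway genes had medians of 0.21, 0.012 and 0.11. In the joined fit 3 ventral factors rose and 2 fell of 21 tested, or 5 of 21 beside 17.3% of all features. Bcl11b, a factor of striatal neurons, had -2.44 and -2.68 on KO adherent 1 and 2, -2.56, -2.23 and -2.46 on KO floating 1, 2 and 3, and -3.73, -2.23 and -4.05 on WT floating 1, 2 and 3. WT floating 1 and 3 were the lowest arrays, and the groups as labelled overlapped through WT floating 2. Bcl11b rose by 1.47 (SE 0.16, limma adjusted p = 0.00919), but it was not well above background on WT floating 3 and passed the filter through the KO arrays. Ebf1, a striatal differentiation factor, fell by 1.12 (SE 0.18, adjusted p = 0.0195), and Rarb, a retinoic acid receptor of the striatum, fell by 1.59 (SE 0.36, adjusted p = 0.0362). Neither Ebf1 nor Rarb passed without WT floating 1, WT floating 3, KO floating 1 or KO adherent 1, or with every dim probe kept. With all 8 arrays their differences in KO floating against WT floating were -0.74 and -0.79 (limma adjusted p = 0.813 each).

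Of 17 GABA and interneuron genes, 4 rose in the joined fit and 0 fell, where 17.3% of all features passed. Abat, which breaks GABA down, had 5.68 and 4.71 on KO adherent 1 and 2, 5.61, 5.90 and 5.32 on KO floating 1, 2 and 3, and 4.18, 5.59 and 4.22 on WT floating 1, 2 and 3. The 3 lowest arrays were the 3 with high Cbx3, among them KO adherent 2, and the groups as labelled overlapped. Joining the cultures, Abat rose by 1.42 (SE 0.18, limma adjusted p = 0.0121). The guidance receptor Robo2 rose by 1.87 (SE 0.32, adjusted p = 0.0218) and Ackr3, a chemokine receptor of migrating interneurons, by 1.44 (SE 0.19, adjusted p = 0.0119). Abat and Robo2 did not pass without WT floating 1 or without WT floating 3, and Robo2 also not without KO adherent 1. Ackr3 did not pass without WT floating 3, and with every dim probe kept none of these genes passed. Astrocytes also express Abat, and the 3 lowest arrays for Abat were also those with the lowest astrocyte and neuronal marker sums. The part of these cell types in the changes of the list genes was not tested. Slc32a1, the vesicular GABA transporter, was well above background on all 8 arrays, and so was Pvalb. Among other interneuron markers of the list, Chrna2 was so on 8, Cck on 5, Calb2 on 3 and Npy on 1 array. Sst, Vip, Calb1, Reln, Lamp5, Nos1 and Elfn1 were so on 0 arrays.

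These list counts moved with single arrays, as did the share of all features called. Without WT floating 3 the joined fit called 2 ventral and 0 GABA and interneuron genes, with 2.73% of all features. Without KO floating 3 it called 10 and 5, with 22.9% of all features, and with every dim probe kept it called 0 and 0, with 0.366%. Of the dorsal (cortical) factors, Pax6 passed and rose by 0.53 (SE 0.14, limma adjusted p = 0.0499), 1 of 10 tested beside 17.3% of all features. It did not pass with normexp, with trend and robust eBayes, with every dim probe kept, or without any 1 of the arrays but KO floating 2. Of the glutamatergic genes 2 of 6 rose, beside the same 17.3%, Camk2a by 2.21 (SE 0.29, adjusted p = 0.0129) and Gria2 by 1.62 (SE 0.37, adjusted p = 0.0369). Neither passed without WT floating 3, without KO adherent 1 or with every dim probe kept, and Gria2 also did not pass with quantile normalization, with normexp, without WT floating 1 or without KO floating 1. Of the hedgehog pathway genes, which pattern the ventral telencephalon, 0 of 8 passed, and Shh itself was well above background on 0 of 8 arrays. Under other settings of the joined fit some passed: 3 with normexp, and 1 higher and 1 lower without KO floating 2 or without KO floating 3. With quantile normalization, trend and robust eBayes, or a filter for background on all arrays, 1 passed.

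**Figure D5:**
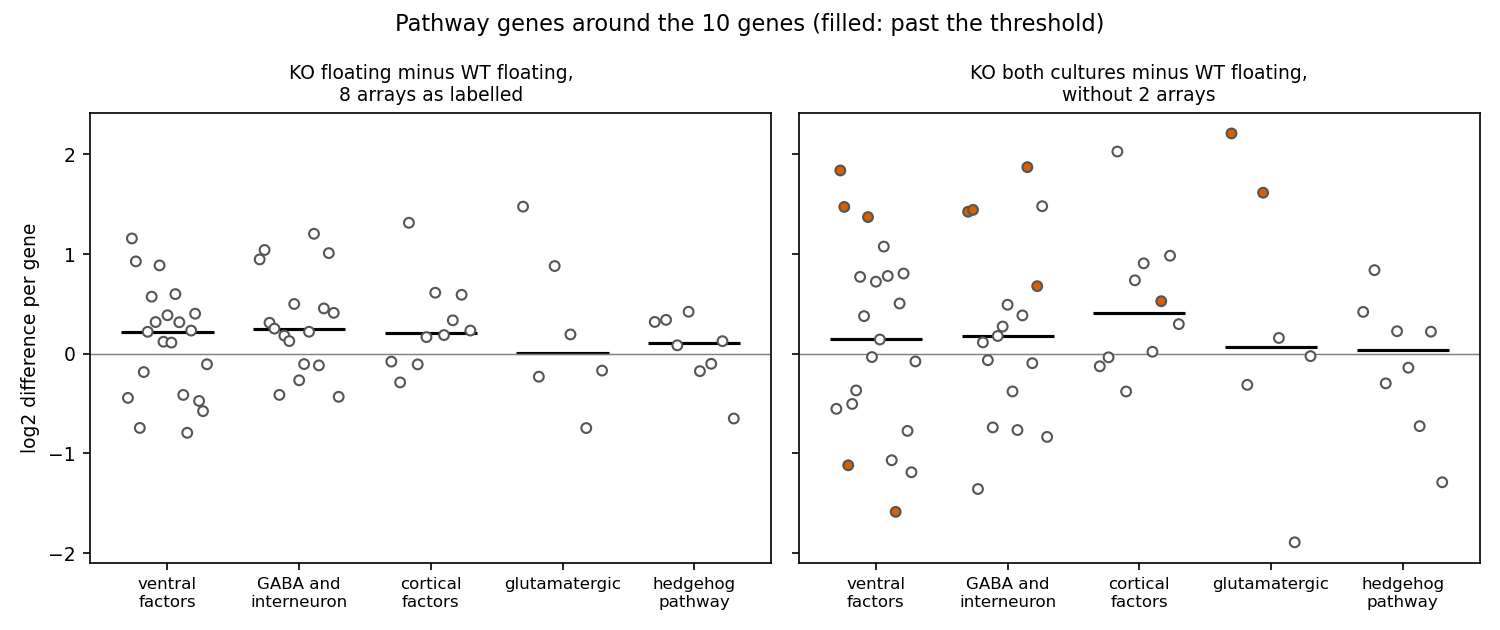
Log2 difference of each tested gene in the 5 lists, for KO floating minus WT floating with all 8 arrays (left) and for both KO cultures minus WT floating without the opposed arrays (right). Each point is a gene, filled where past the threshold, and bars are list medians. The left panel has 0 filled points, and the right panel has 12, of which 2 lie below 0.

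The genes with the most similar pattern over the 8 arrays were taken from 11481 named genes detected on all of them. For Six3 these were Plin3 (r = 0.991) and Plce1 (r = 0.965). For Gad1 they were Snora74a (r = 0.996), Meis2 (r = 0.993) and Itprid2 (r = 0.993), and for Lhx6 they were Nlrp1a (r = 0.979), Fam107a (r = 0.975) and Snap23 (r = 0.969). Meis2 is itself a factor of the lateral eminence, and its level ran from 2.55 to 3.24. These are among the 3 highest correlations for each gene and carry no test, and the points share 1 slide and the arrays' overall differences.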

How the data were processed

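Total RNA of 8 neurosphere samples was measured on single-colour Agilent arrays. Spot intensity on a linear scale was deposited by the authors, made with Agilent Feature Extraction 11.0.1.1 per the file headers (9.1.3.1 per the submitters' processing notes), which subtracts background and sets 0 or 1 flags. The authors' value table equals that signal (99.2% of 55681 probes within 0.01% on each array; column medians 36.4 to 51.0), so it is linear and not normalized between arrays. Its direction is that of the signal.

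Here log2 intensity minus each array's 75th percentile was computed. Outlier spots were left out, repeated spots averaged, and 200 probes without a value on some array not tested. A probe counted as well above background where at least 0.5 of its spots did. A probe was tested if this held for all arrays of 1 group or more, and each gene was read from its brightest tested probe. Of 55681 probes, 27235 matched RefSeq accessions (GRCm38.p6), the others staying their own feature. Groups came from the sample titles. The test was two-sided limma (3.58.1, R 4.3.3), with 3 groups sharing 1 spread and Benjamini-Hochberg adjustment over all features (threshold 0.05), and the fit was tested on simulated data. The number of arrays limits the precision, and p-values measure the spread between these samples.

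Members, lists, the leaving out of the opposed arrays and the joined fit were chosen with earlier results of these data known. All 10 genes, Cbx3 and passing list members are named, with the 3 most correlated genes for the brightest always-detected gene of each role, except a few genes that are not reported here. Same-numbered floating arrays deviated together, with r across features of 0.103, 0.590 and 0.335 for numbers 1, 2 and 3. By the rule used (over 0.1 for each) this counts as pairing, but the labels state no pairs. KO floating 1 was closer to WT floating 3 (r = 0.205), and KO floating 3 to WT floating 1 (r = 0.346). Number 2 alone had its highest r with the same number. Alternatives were quantile and other percentile scaling, normexp, the authors' table, probe filters, eBayes settings, a replicate block, every probe, fewer arrays and each array left out. Normexp (offset 50) started from the median spot signal, the mean being absent from the columns used.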

Additional observations from a re-analysis of the deposited data

Results flagged for a closer look

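Dlx6, which was not tested in the main fit, was well above background on 1 KO array and on 0 WT floating arrays. Its level was -4.16 on KO floating 1, against -5.97 and -5.32 on KO floating 2 and 3, -5.77 and -6.05 on KO adherent 1 and 2, and -6.12, -5.87 and -5.39 on WT floating 1, 2 and 3, none of which was well above background. KO floating 3 (-5.32) was close to WT floating 3 (-5.39), with neither well above background. A single spot on a single array carries the value of KO floating 1.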

How the results depend on the processing

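Of the 10 genes, 0 passed in the 3 comparisons as labelled under every scaling, filter and eBayes setting, the authors' table, every probe, the replicate block and the leaving out of each array (0 to 0); 1 passed, Six3, without the opposed arrays and with the KO cultures joined. In the joined fit that 1 became 0 with every dim probe kept, and 0 to 1 with 1 array left out. For KO floating against WT floating the 1 feature called became 0 with normexp, all dim probes kept, a filter for background on all arrays, a fit of only those 2 groups, eBayes with trend and robust, and the replicate block; it became 46 without the opposed arrays, 3722 without them and with the cultures joined as well, and 0 to 3 with 1 array left out. For KO adherent against KO floating 0 became 7 with quantile normalization and 0 to 6 with 1 array left out. In the third comparison, KO adherent against WT floating, 1 became 0 under those same settings, 8 after quantile normalization, 4 without the opposed arrays, and 0 to 3 with 1 array left out. The replicate block changed no other call. Each array whose leaving out ended the joined call of Six3 is named above; the cause was not tested.

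Some differences turned their sign, among them large ones between KO adherent and KO floating, and none of them was past the threshold. Without the opposed arrays, KO floating against WT floating was -0.23 for Dlx2 and -0.10 for Gad1 (-0.20 and -0.079 with the cultures joined as well), KO adherent against KO floating -0.0027 for Dlx1 and 0.12 for Dlx2, and KO adherent against WT floating -0.41 for Dlx1 and -0.012 for Gad1. With 1 array left out, KO floating against WT floating ran from -0.23 to 0.38 for Dlx2 and from -0.10 to 0.66 for Gad1. KO adherent against KO floating ran from -0.0027 to 2.05 for Dlx1, -3.74 to 0.12 for Dlx2, -0.28 to 0.37 for Gad1, -0.31 to 0.74 for Lhx6 and -0.77 to 1.21 for Six3. KO adherent against WT floating ran from -0.46 to 1.60 for Dlx1, -3.61 to 0.25 for Dlx2, -0.013 to 0.60 for Gad1 and -5.24 to 2.70 for Cbx3. In the joined fit Gad1 was 0.037 with the percentile of detected probes, 0.018 with normexp and -0.26 to 0.17 with 1 array left out. The alternatives of the joined fit were chosen after its result was seen. Dim signal limits Dlx5, Dlx6, Gad2, Nkx2-1 and Gsx2, for which no difference is given.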

Other observations

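A few further genes of the ventral telencephalon were high on 1 or a few arrays; they were picked after their values were seen. Lhx8, a factor of cholinergic neurons of the medial eminence, had -1.92 on KO floating 3, where it was well above background, and -6.84 to -5.42 on the other 7 arrays. Npy, a neuropeptide of interneurons, had -2.63 on the same array and -7.08 to -5.69 on the others. Vax1, a ventral forebrain factor, was highest there too on its brighter probe, at -0.29 against -6.21 to -3.61. Nkx2-1 was not well above background on KO floating 3, with 0 of 10 spots.

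Dlx6os1, a noncoding transcript of the Dlx5 and Dlx6 locus, had -6.50 and -3.96 on KO adherent 1 and 2, -6.46, -5.94 and -6.02 on KO floating 1, 2 and 3, and -4.76, -6.80 and -3.03 on WT floating 1, 2 and 3. The 3 highest arrays were those with high Cbx3, but WT floating 3 alone was well above background. Dlx6os1 did not pass the filter on dim probes in the main fit of all 8 arrays.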
